A study of Acidomyces sp. 'richmondensis' with 12 samples.

Results

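A small set of genes was nearly silent in wild-type mycelium of the fungus Acidomyces richmondensis MEY-1 and was present at a low level when copper was added, when the gene ArAceA was missing, or both. The genes were chosen by their own transcript levels, in FPKM, which divides the fragments of a gene by transcript length and library size, so that genes of different length can be compared. A gene was taken when it lay below 0.5 FPKM in all 3 wild-type libraries without copper, at 1 FPKM or more in all 3 libraries of at least 1 of the other 3 groups, and below 5 FPKM in each of the 4 group means. This gave 66 of the 10043 genes in the table, or 0.657%. The low wild-type level and the higher level in the group that let a gene in are therefore descriptions, and no test of them is read here.

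The data were 12 RNA-seq libraries from mycelium, 3 from separate cultures in each of 4 groups. The groups were the wild type (WT) without copper, WT with copper, a strain labelled as lacking ArAceA (∆ArAceA) without copper, and ∆ArAceA with copper. Mycelium was grown for 4 days, washed, and moved to fresh medium with no CuCl2 or with 15 mM CuCl2 for 6 h, so the groups without copper were washed and moved as well. How many independent ∆ArAceA transformants stood behind the cultures is not given in the sources used here, and the files name genes by locus identifiers alone, so ArAceA itself was not looked up here and the genotypes rest on the labels.

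Copper is needed in traces by many enzymes and is toxic in excess, and fungi answer excess copper mainly by pumping it out of the cell, storing it and binding it to small cysteine-rich proteins. In Aspergillus fumigatus the transcription factor AceA, whose name ArAceA shares, responds to excess copper and switches on a copper-exporting ATPase, and its relative Ace1 in Saccharomyces cerevisiae switches on the metallothionein gene CUP1. A low FPKM can come from a few transcripts in every cell or from many in a few cells, and in whole mycelium these, like fewer cells of a kind and less RNA per cell, cannot be told apart. With no names, roles or sequences for the 66 genes, what follows describes their levels and not their functions.

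The 66 genes were a small share of the nearly silent ones. In WT without copper 1041 genes lay below 0.5 FPKM in all 3 libraries, and 963 of them reached 1 FPKM in all 3 libraries of no other group. Of the 78 that did, 12 had a group mean of 5 FPKM or more and were left out by the ceiling, which leaves 6.34% of the nearly silent genes. FPKM summed over all genes ran from 884111 to 926713 per library. Genes listed at 0 numbered 564 to 598 per WT library without copper, 505 to 526 with copper, 457 to 481 per ∆ArAceA library without copper and 452 to 462 with copper, and the part of these differences in the results was not tested.

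Most of the 66 genes came in through the deletion strain. The number of genes at 1 FPKM or more in all 3 libraries was 6 for WT with copper, 35 for copper-free ∆ArAceA and 38 for ∆ArAceA with copper. In a single group only were 3, 24 and 26 genes respectively. A further 10 genes reached 1 FPKM in both ∆ArAceA groups, 2 in both copper groups, 1 in WT with copper and ∆ArAceA without it, and 0 in all 3 groups. Over the 66 genes the median of group means was 0.188 FPKM in WT, 0.45 FPKM in WT with copper, 1.22 FPKM in ∆ArAceA and 1.35 FPKM in ∆ArAceA with copper. The medians over all 10043 genes were 14.5, 14.2, 16.7 and 16 FPKM in the same order.

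Even at their highest the genes stayed low. The highest group mean of a gene ran from 1.13 to 4.51 FPKM with a median of 1.72 FPKM, and it was at least 2 FPKM in 24 genes, at least 3 FPKM in 12 and at least 4 FPKM in 6. It lay in ∆ArAceA without copper in 32 genes, in ∆ArAceA with copper in 29 and in WT with copper in 5. Their FPKM together came to 13.2, 11.4 and 11.8 in the WT libraries and to 42.3, 35.6 and 34.6 in WT with copper. The sums were 92.5, 95.1 and 91.5 in ∆ArAceA and 98.6, 83.5 and 100.2 in ∆ArAceA with copper. The libraries of both ∆ArAceA groups lay above all WT libraries, which the way the genes were chosen favours, and the ∆ArAceA groups overlapped each other.

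**Figure D1:**
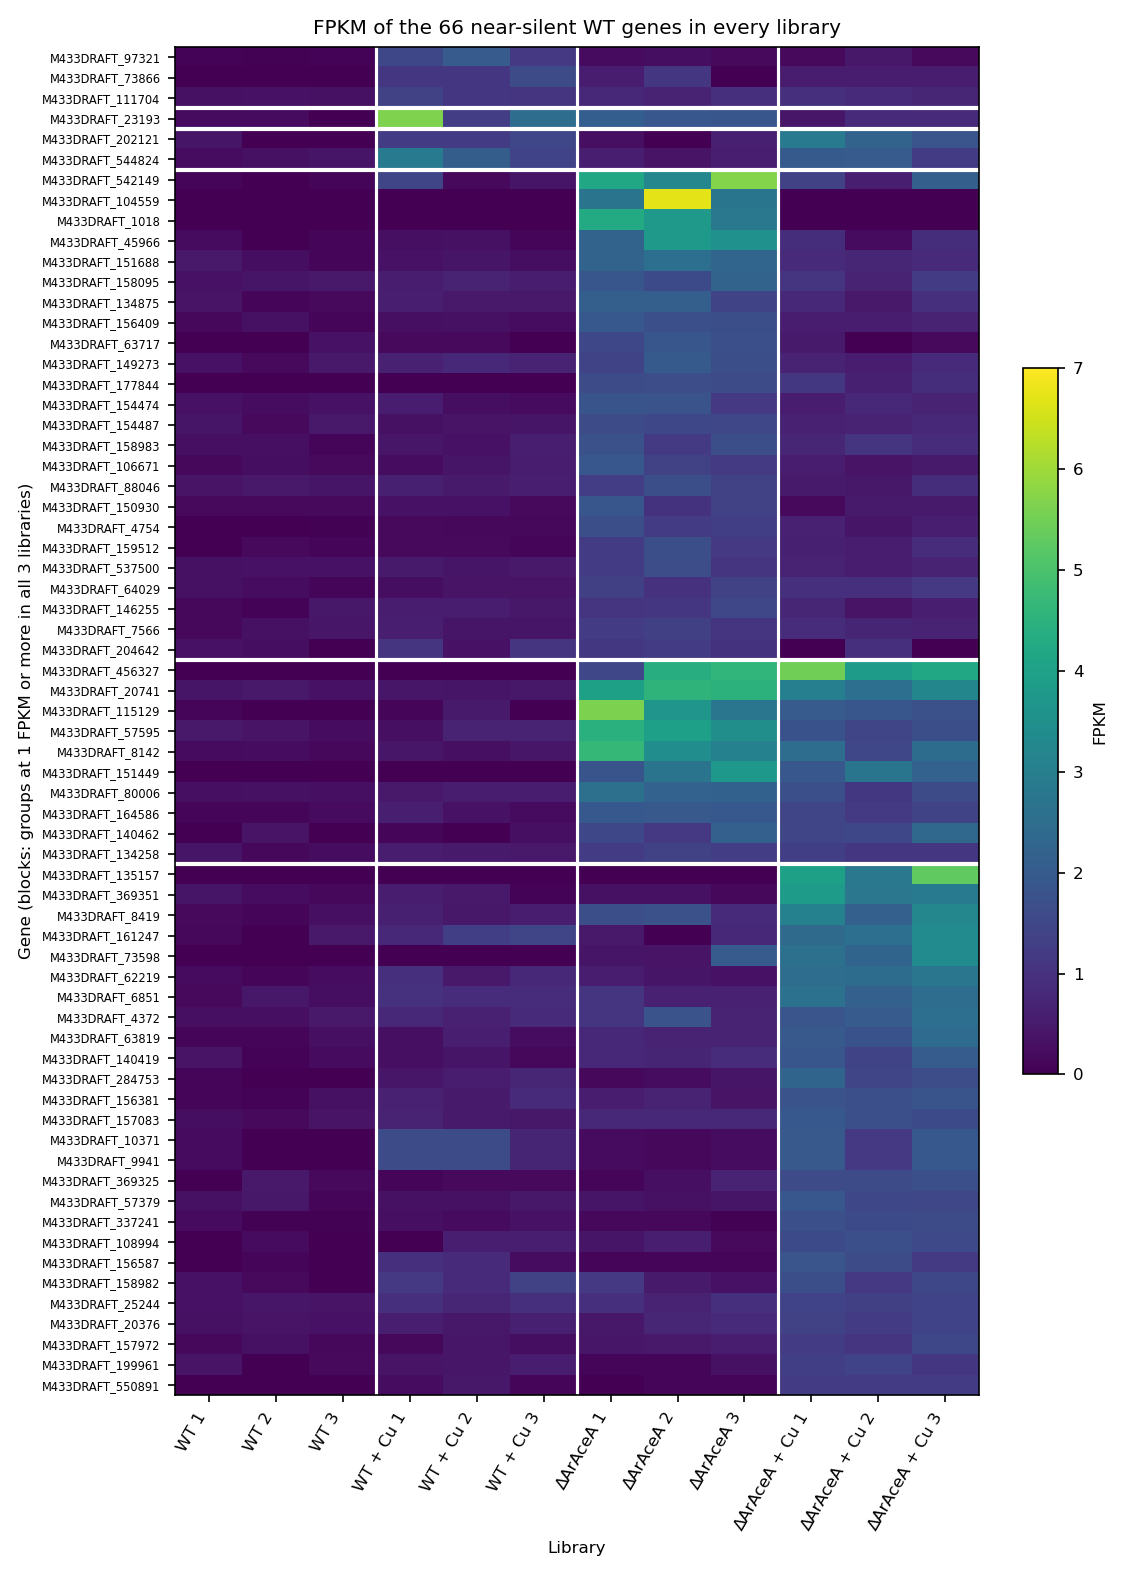
FPKM of the 66 genes (rows) in each of the 12 libraries (columns), with colour from 0 to 7 FPKM. White lines part the groups of libraries and the blocks of genes by the groups in which all 3 libraries were at 1 FPKM or more: from the top 3 genes in WT with copper, 1 in WT with copper and ∆ArAceA, 2 in both copper groups, 24 in ∆ArAceA, 10 in both ∆ArAceA groups and 26 in ∆ArAceA with copper.

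In WT, 6 of the genes were at 1 FPKM or more in every library with copper. M433DRAFT_97321 had 0.08, 0.04 and 0.08 FPKM in the WT libraries and 1.51, 2.01 and 1.17 in those of WT with copper. In ∆ArAceA it had 0.21, 0.25 and 0.17 FPKM without copper and 0.17, 0.46 and 0.17 FPKM with copper. Every library other than those of WT with copper was below 0.5 FPKM, and M433DRAFT_97321 was the only gene of the 6 of which this was true. M433DRAFT_111704 had 0.31, 0.35 and 0.31 FPKM in the WT libraries, 1.36, 1.12 and 1.08 in those of WT with copper, 0.80, 0.70 and 0.94 in those of ∆ArAceA and 0.98, 0.83 and 0.76 in those of ∆ArAceA with copper. Its 2 ∆ArAceA groups overlapped and lay between the 2 WT groups.

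M433DRAFT_73866 was listed at 0 in all 3 WT libraries and had 1.11, 1.11 and 1.63 FPKM in WT with copper. Its values in ∆ArAceA were 0.55, 1.10 and 0 FPKM, and 0.56, 0.54 and 0.57 FPKM with copper. The ∆ArAceA libraries without copper spanned the whole range below WT with copper, so its level there is poorly known.

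M433DRAFT_202121 and M433DRAFT_544824 were at 1 FPKM or more in both copper groups. M433DRAFT_202121 had 0.40, 0 and 0 FPKM in the WT libraries, 1.23, 1.25 and 1.48 in those of WT with copper, 0.30, 0.02 and 0.61 in those of ∆ArAceA and 2.89, 2.23 and 1.85 in those of ∆ArAceA with copper. M433DRAFT_544824 had 0.24, 0.31 and 0.39 FPKM in the WT libraries, 2.85, 2.06 and 1.41 in those of WT with copper, 0.59, 0.37 and 0.58 in those of ∆ArAceA and 1.97, 2 and 1.25 in those of ∆ArAceA with copper. In both genes the copper libraries lay above the copper-free ones in either genotype. The 2 copper groups overlapped in M433DRAFT_544824, and in M433DRAFT_202121 those of ∆ArAceA lay above those of WT.

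M433DRAFT_23193 had the highest mean of the 6 in WT with copper and also the widest spread. It had 0.20, 0.21 and 0 FPKM in the WT libraries and 5.65, 1.26 and 2.5 in those of WT with copper, a mean of 3.14 ± 2.26 FPKM (SD, n = 3) and a coefficient of variation of 72.2%. In ∆ArAceA it had 2.09, 1.89 and 1.88 FPKM without copper and 0.42, 0.83 and 0.84 FPKM with copper. The ∆ArAceA libraries without copper fell inside the range of WT with copper, and those with copper lay below both.

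**Figure D2:**
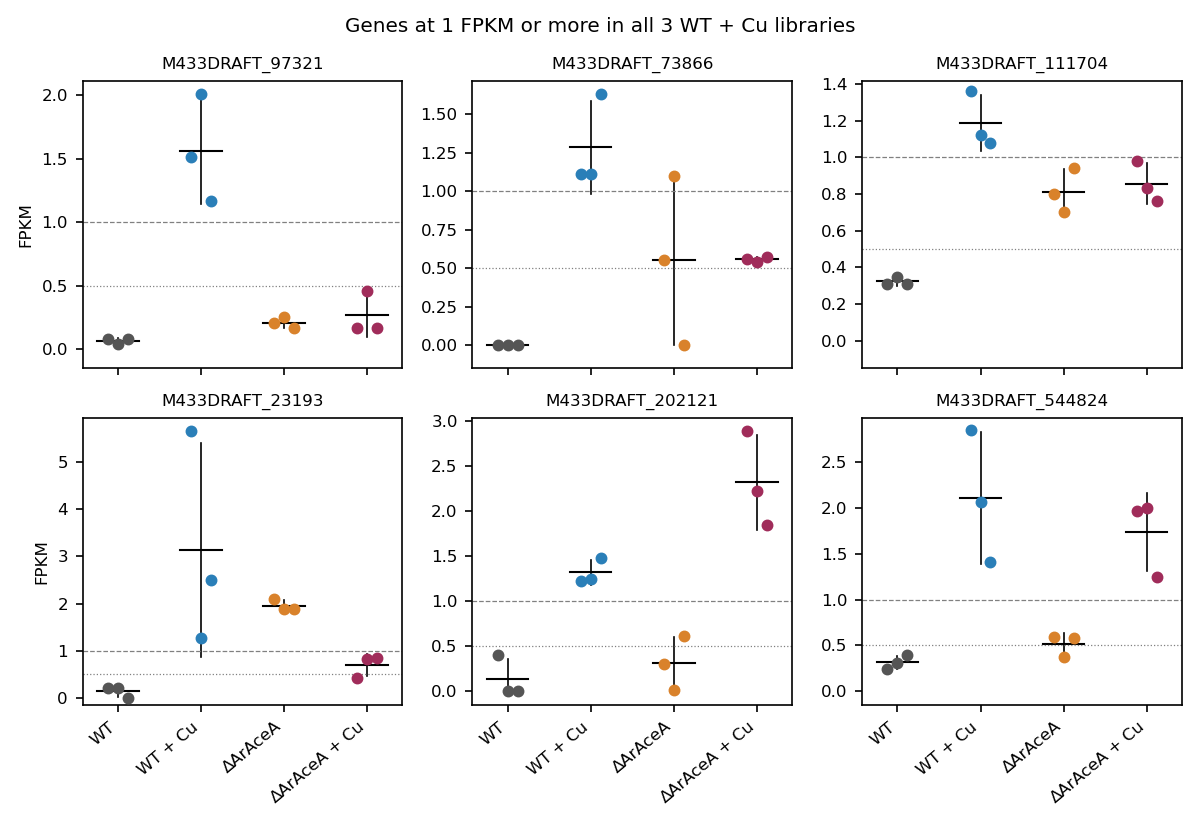
FPKM by group for the 6 genes at 1 FPKM or more in all 3 libraries of WT with copper. Points are libraries, horizontal bars are means and vertical bars are SD (n = 3, drawn no lower than 0); dotted and dashed lines mark 0.5 and 1 FPKM. M433DRAFT_97321 is high in WT with copper alone, whereas M433DRAFT_202121 and M433DRAFT_544824 are high in the copper libraries of both genotypes.

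For these 6 genes the response to copper in ∆ArAceA could be tested, since the ∆ArAceA levels played no part in letting them in other than through the ceiling. The limma test, two-sided, used log2(FPKM + 1) and was fitted over 8741 genes and 12 libraries, with Benjamini-Hochberg adjustment over the 8741 genes. Log2 differences on this scale understate the change of genes near 1 FPKM. Over all genes tested, 24.7% were called higher and 31.5% lower with copper in ∆ArAceA, where a call means an adjusted p under 0.05. Among the 6 genes, 2 were called higher, 1 lower and 3 neither, and their median log2 difference was 0.06 against -0.04 over all genes tested. The error of each gene in this fit also draws on the WT libraries, whose values the rule used. A fit on the 2 ∆ArAceA groups alone called 2 of the 6 higher and 1 lower, and 2260 and 2856 of all genes tested.

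M433DRAFT_202121 rose by a log2 difference of 1.36 (SE 0.189, limma adjusted p = 4.2e-05), with all 3 copper libraries above all 3 without copper. M433DRAFT_544824 rose by 0.85 (SE 0.172, limma adjusted p = 0.00089), again without overlap. Under every alternative tried, leaving out any 1 library included, the adjusted p stayed at or under 0.00272 in the first and at or under 0.00537 in the second. These 2 genes were thus higher with copper in the deletion strain as well as, by the rule that chose them, in WT.

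M433DRAFT_23193 fell by 0.81 (SE 0.289, limma adjusted p = 0.0305), all 3 copper libraries lying below the others. This call was lost when some single libraries were left out. The limma adjusted p was 0.0774, 0.0638 and 0.0633 without ∆ArAceA replicates 1, 2 and 3. It was 0.102 and 0.0515 without replicates 1 and 2 of ∆ArAceA with copper. The log2 difference moved less, and was -0.78, -0.82, -0.83, -0.69 and -0.87 in the same order. Over all alternatives tried the lowest limma adjusted p was 0.00137. In the authors' deposited table the same comparison had a log2 ratio of -0.92 and a Q value of 0.112.

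The other 3 genes did not pass. The log2 difference was 0.06 (SE 0.149, limma adjusted p = 0.76) for M433DRAFT_97321, 0.07 (SE 0.212, 0.797) for M433DRAFT_73866 and 0.03 (SE 0.117, 0.821) for M433DRAFT_111704. Given these errors, the values do not show that copper had no effect. By the authors' deposited table, 2 of the 6 genes, M433DRAFT_202121 and M433DRAFT_544824, had a Q value under 0.05 and a higher level, and 0 a lower one, where 24.3% and 22.7% of all genes with a Q value did.

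By their medians, the 24 genes at 1 FPKM in ∆ArAceA without copper alone were close to silent in the WT groups. They were at a middle level in ∆ArAceA with copper by the same measure. Single genes among the 24 differed, and in some the 2 copper groups had about the same mean. The median group means of the 24 were 0.21 FPKM in WT, 0.347 FPKM in WT with copper, 1.57 FPKM in ∆ArAceA and 0.675 FPKM in ∆ArAceA with copper. The last value is bounded by the way the block was formed. The 3 highest were M433DRAFT_542149, M433DRAFT_104559 and M433DRAFT_1018. M433DRAFT_542149 had 4.21, 3.25 and 5.69 FPKM in the ∆ArAceA libraries, 1.36, 0.58 and 2.12 in those with copper, 0.12, 0 and 0.11 in those of WT and 1.45, 0.19 and 0.41 in those of WT with copper. Its ∆ArAceA libraries without copper lay above all the others, and the 2 copper groups overlapped.

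M433DRAFT_104559 and M433DRAFT_1018 were listed at 0 in the other 9 libraries. In ∆ArAceA without copper M433DRAFT_104559 had 2.70, 6.71 and 2.72 FPKM, the largest coefficient of variation of the 35 genes let in by that group, 57.1%. M433DRAFT_1018 had 4.28, 3.78 and 2.79 FPKM there. Since a value listed at 0 may hide a level too low to estimate, no fold is given.

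The 10 genes at 1 FPKM in both ∆ArAceA groups had higher median levels in those 2 groups than the 24. In ∆ArAceA with copper the way the blocks were formed favours this. Their median group means were 0.165 FPKM in WT, 0.383 FPKM in WT with copper, 3.12 FPKM in ∆ArAceA and 1.82 FPKM in ∆ArAceA with copper. M433DRAFT_456327, the highest of all 66, was listed at 0 in all 6 WT libraries and had 1.5, 4.36 and 4.62 FPKM in ∆ArAceA and 5.48, 3.85 and 4.20 FPKM with copper. Its 2 ∆ArAceA groups overlapped. M433DRAFT_20741 had 0.41, 0.47 and 0.33 FPKM in the WT libraries, 0.43, 0.41 and 0.44 in those of WT with copper, 3.99, 4.54 and 4.51 in those of ∆ArAceA and 3.03, 2.57 and 3.21 in those of ∆ArAceA with copper. Its replicates were close, and the 6 WT libraries stayed in a narrow band with or without copper.

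M433DRAFT_115129 had 0.12, 0 and 0 FPKM in the WT libraries, 0.13, 0.50 and 0 in those of WT with copper, 5.63, 3.64 and 2.75 in those of ∆ArAceA and 2.01, 1.86 and 1.74 in those of ∆ArAceA with copper. M433DRAFT_151449, like M433DRAFT_456327, was listed at 0 in all 6 WT libraries and had 1.81, 2.70 and 3.72 FPKM in ∆ArAceA and 1.89, 2.73 and 2.20 FPKM with copper. In both genes every ∆ArAceA library lay above every WT library. The 2 ∆ArAceA groups overlapped in M433DRAFT_151449 and did not in M433DRAFT_115129, where those with copper were lower.

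The 26 genes at 1 FPKM in ∆ArAceA with copper alone had median group means of 0.185 FPKM in WT, 0.543 FPKM in WT with copper, 0.432 FPKM in ∆ArAceA and 1.71 FPKM in ∆ArAceA with copper. M433DRAFT_135157 was listed at 0 in 9 libraries and had 3.99, 2.79 and 5.30 FPKM in ∆ArAceA with copper. M433DRAFT_369351 had 0.40, 0.24 and 0.16 FPKM in the WT libraries, 0.56, 0.48 and 0.08 in those of WT with copper, 0.32, 0.32 and 0.16 in those of ∆ArAceA and 3.85, 2.77 and 2.85 in those of ∆ArAceA with copper. Neither copper in WT nor the deletion without copper took it over 0.56 FPKM in any library.

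M433DRAFT_8419 followed steps instead. It had 0.17, 0.11 and 0.28 FPKM in the WT libraries, 0.61, 0.45 and 0.56 in those of WT with copper, 1.67, 1.73 and 0.83 in those of ∆ArAceA and 3.07, 2.15 and 3.25 in those of ∆ArAceA with copper. The 4 groups did not overlap and stood in that order.

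**Figure D3:**
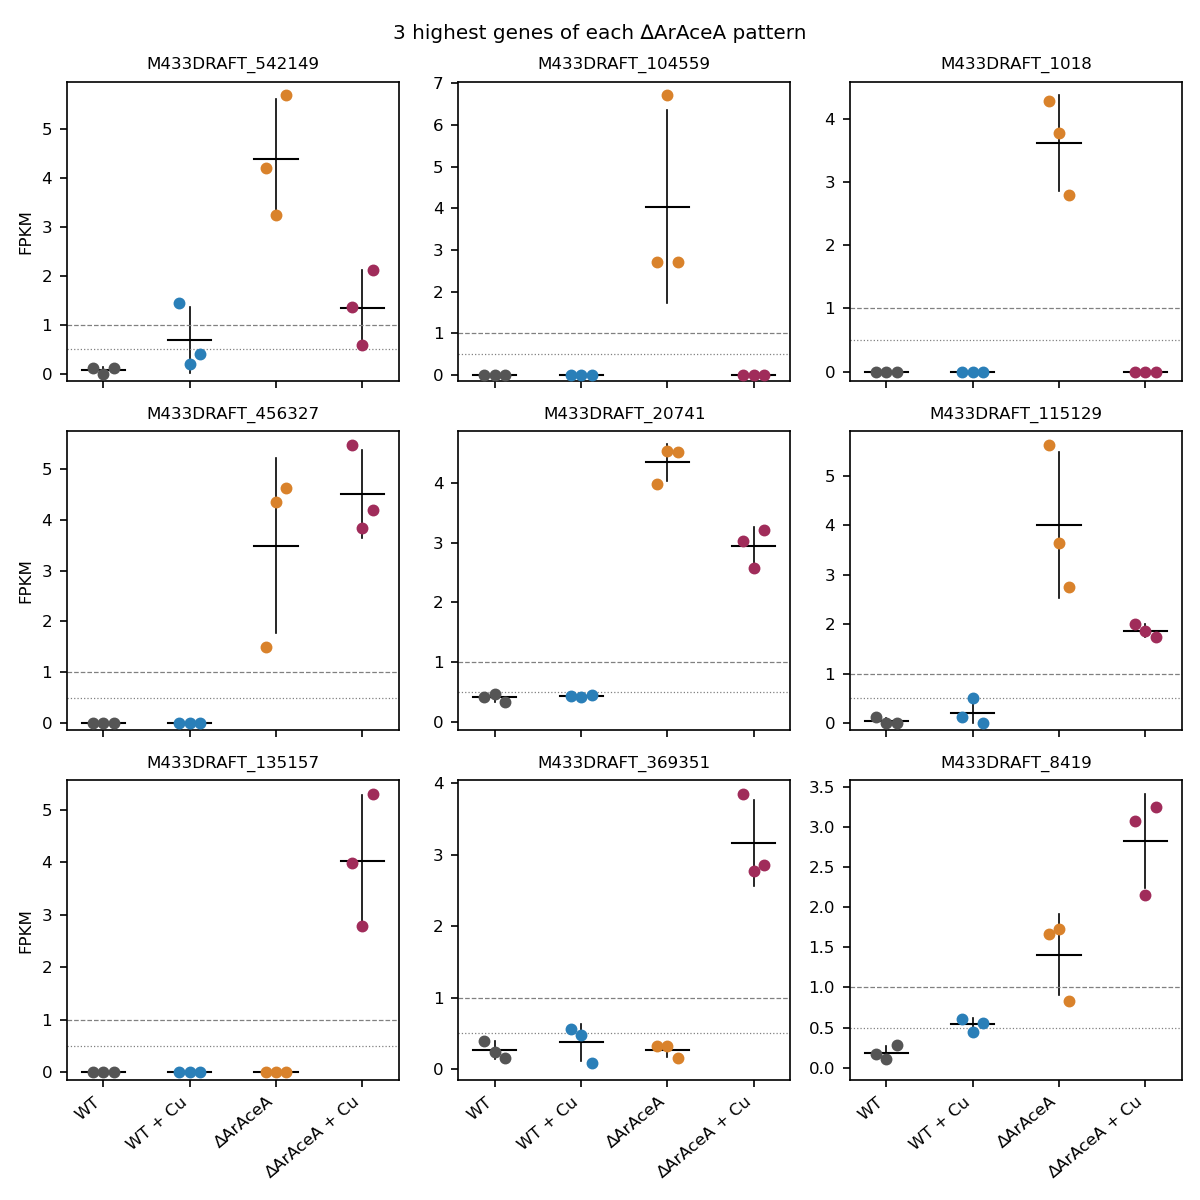
FPKM by group for the 3 genes of highest group mean in each block of the ∆ArAceA strain: at 1 FPKM or more without copper only (top), in both ∆ArAceA groups (middle) and with copper only (bottom). Points are libraries, horizontal bars are means and vertical bars are SD (n = 3, drawn no lower than 0); dotted and dashed lines mark 0.5 and 1 FPKM. M433DRAFT_104559, M433DRAFT_1018 and M433DRAFT_135157 lie at 0 in every group but one.

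Of the 38 genes at 1 FPKM in ∆ArAceA with copper, 26 were let in by that group alone. Another 10 were also let in by ∆ArAceA without copper and 2 by WT with copper. The levels of the 38 in those 2 groups are therefore partly set by the rule and are a description. Below 0.5 FPKM in all 3 libraries were 13 of the 38 genes in WT with copper and 10 in ∆ArAceA without copper. Of these, 4 were below 0.5 FPKM in both groups, 9 in WT with copper only and 6 in ∆ArAceA only, which leaves 19 that were below it throughout in neither. The ∆ArAceA mean was above that of WT with copper in 20 genes and below it in 16. The medians of group means over the 38 were 0.48 FPKM in WT with copper, 0.675 FPKM in ∆ArAceA and 1.76 FPKM in ∆ArAceA with copper.

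The difference between genotypes in the presence of copper could be tested for the 35 genes let in by ∆ArAceA without copper, since their level in ∆ArAceA without copper was enough to let them in, whatever their level in the copper groups below the ceiling. Of the 35, 10 also reached 1 FPKM throughout ∆ArAceA with copper, and 1 throughout WT with copper. In WT with copper 17 of the 35 were below 0.5 FPKM in all 3 libraries and 32 below 1 FPKM in all 3, and the 1 gene at 1 FPKM or more there was M433DRAFT_23193. Their median group mean was 0.383 FPKM in WT with copper and 0.733 FPKM in ∆ArAceA with copper, against 1.70 FPKM in ∆ArAceA without copper. The ∆ArAceA mean with copper was above that of WT with copper in 30 of the 35. All genes tested leaned the same way, with a median log2 difference of 0.12, and their share by this measure was not counted. The ∆ArAceA mean with copper was below that without copper in 33 of the 35, a comparison that the choice of the genes favours.

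By the same limma fit 18 of the 35 genes (51.4%) were called higher in ∆ArAceA than in WT with copper, 1 was called lower and 16 neither, at an adjusted p under 0.05. Over all genes tested 35.4% were called higher and 11.4% lower. The error of each gene in this fit also draws on the copper-free libraries, whose values the rule used. A fit on the 2 copper groups alone called 16 of the 35 higher and 1 lower, and 3158 and 1069 of all genes tested. The 18 were 10 of the 10 genes that also reached 1 FPKM throughout ∆ArAceA with copper and 8 of the 24 at 1 FPKM in ∆ArAceA without copper alone. That split uses the copper values under test, so it is a description, and the share over the 35 is not spread evenly among them. The median log2 difference was 0.40 over the 35 and 0.12 over all genes tested. The second value depends on the scaling of the libraries, and after scaling by the median of ratios 15 of the 35 were called higher, while the split over all genes moved from 3092 higher and 994 lower to 1896 and 1877. All 3 ∆ArAceA libraries with copper lay above all 3 of WT with copper in 21 of the 35 genes, against 43.1% of all genes tested, and below them in 1, against 15.2%. Of the 18 higher calls, M433DRAFT_156409 (limma adjusted p = 0.0441) and M433DRAFT_154487 (0.0455) were lost in most alternatives tried. M433DRAFT_158983 (0.0297) and M433DRAFT_4754 (0.017) were lost in some. These genes were named after the alternatives were seen.

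The largest difference was in M433DRAFT_456327, 2.45 on the log2(FPKM + 1) scale (SE 0.243, limma adjusted p = 4.32e-06). M433DRAFT_151449 followed with 1.70 (SE 0.168, limma adjusted p = 3.39e-06) and M433DRAFT_20741 with 1.46 (SE 0.106, limma adjusted p = 2.08e-07). M433DRAFT_456327 and M433DRAFT_151449 were listed at 0 in all 3 libraries of WT with copper. Every alternative tried, leaving out any 1 library included, kept the adjusted p of the 3 genes at or under 4.24e-05. The gene called lower was M433DRAFT_23193, with a log2 difference of -1.15 (SE 0.289, limma adjusted p = 0.00604), which stayed at or under 0.0349 under the same alternatives. In the authors' deposited table its log2 ratio was -1.41 with a Q value of 0.00735.

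Among the 16 genes not called were M433DRAFT_104559 and M433DRAFT_1018, listed at 0 in all 6 copper libraries. M433DRAFT_542149 was not called either, and was called without replicate 1 of WT with copper (limma adjusted p = 0.025) or without replicate 2 of ∆ArAceA with copper (0.0435). By the authors' deposited table, 33 of the 35 genes had a Q value for this comparison. Of these, 12 were higher and 1 lower at a Q value under 0.05, where 15.6% and 17.2% of all genes with a Q value were.

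**Figure D4:**
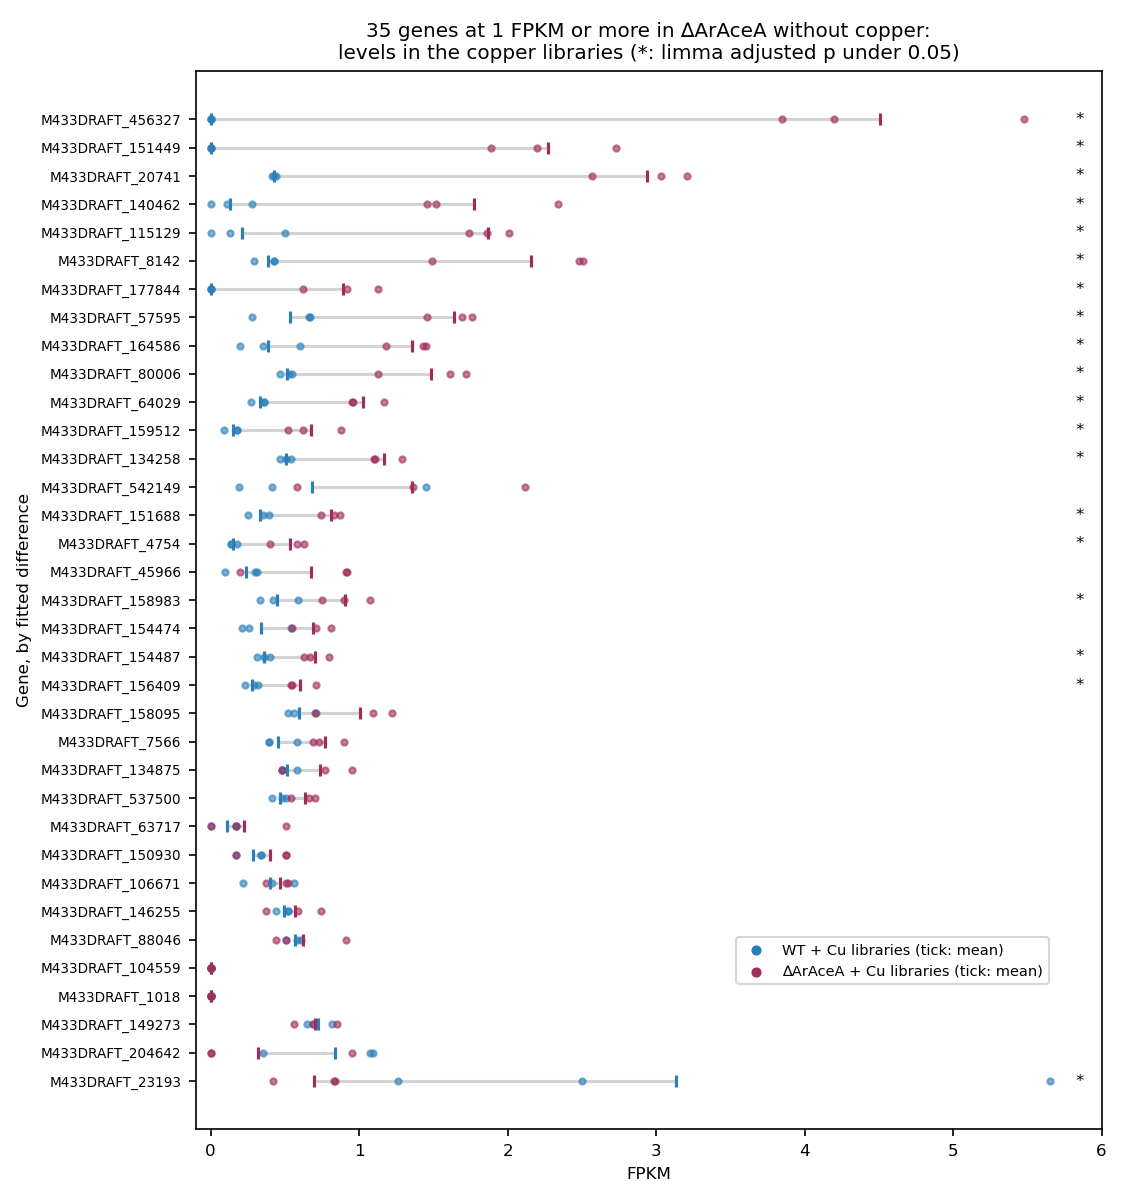
FPKM in the copper libraries of WT and of ∆ArAceA for the 35 genes let in by ∆ArAceA without copper, ordered by the fitted difference. Points are libraries, ticks are means, grey lines join the means and asterisks mark a limma adjusted p under 0.05; 18 marked genes are higher in ∆ArAceA and M433DRAFT_23193, at the bottom, is lower.

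Genes listed at 0 throughout one genotype formed a small subset. Of the 66 genes 9 were listed at 0 in all 3 WT libraries and 7 in all 6 WT libraries, with or without copper. Of the table's 10043 genes 9 combined values of 0 in all 6 WT libraries with 1 FPKM or more throughout a ∆ArAceA group, so 2 of those lay over the ceiling. The 7 genes were M433DRAFT_456327, M433DRAFT_151449, M433DRAFT_104559, M433DRAFT_1018, M433DRAFT_135157, M433DRAFT_177844 and M433DRAFT_73598, the last pair named after their values were seen. M433DRAFT_177844 had 1.64, 1.65 and 1.60 FPKM in ∆ArAceA and 1.13, 0.62 and 0.92 FPKM with copper, and M433DRAFT_73598 had 0.41, 0.36 and 2.02 FPKM in ∆ArAceA and 2.58, 2.26 and 3.39 FPKM with copper. M433DRAFT_177844 was lower with copper in every library, and M433DRAFT_73598 was higher with copper in every library.

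A few values show how many sequenced fragments stand behind 1 FPKM. In a gene of low level the FPKM of a library can lie near a whole multiple of what 1 fragment is worth. Such a spacing was found in 16 of the 66 genes, where at least 80% of the values lay within 0.1 of a whole multiple, and in the other 50 it was not found. The search took only steps of at least 0.05 FPKM and genes with at least 8 values above 0. Genes with a finer spacing or with most values at 0 could therefore not be found. In the 16 genes 1 FPKM came to between 1.82 fragments (M433DRAFT_73866) and 15.8 fragments (M433DRAFT_156381), with a median of 9.12. This range is bounded by the search and does not describe the other 50 genes. In WT without copper the 16 genes had at most 6 fragments in a library and between 0 and 10 over the 3 libraries.

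The numbers of fragments given here are inferred from this spacing and were not counted. M433DRAFT_73866 rests on 2, 2 and 3 fragments in WT with copper, 1, 2 and 0 in ∆ArAceA, and 1 in each ∆ArAceA library with copper. M433DRAFT_23193 rests on 27, 6 and 12 fragments in WT with copper, 10, 9 and 9 in ∆ArAceA, and 2, 4 and 4 in ∆ArAceA with copper. M433DRAFT_550891 and M433DRAFT_45966 are given as well, chosen after their values were seen. M433DRAFT_550891 had 0 fragments in all WT libraries without copper, 2, 4 and 1 with copper, 0, 1 and 1 in ∆ArAceA, and 11 in each ∆ArAceA library with copper. At this depth a group difference in M433DRAFT_73866 is a matter of 3 fragments or fewer in a library. In M433DRAFT_550891 the ∆ArAceA libraries with copper stood apart from the rest. The rule let this gene in by those libraries alone, so its difference is a description. M433DRAFT_45966 had 22, 37 and 35 fragments in ∆ArAceA, 9, 2 and 9 with copper, and at most 3 in any WT library.

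**Figure D5:**
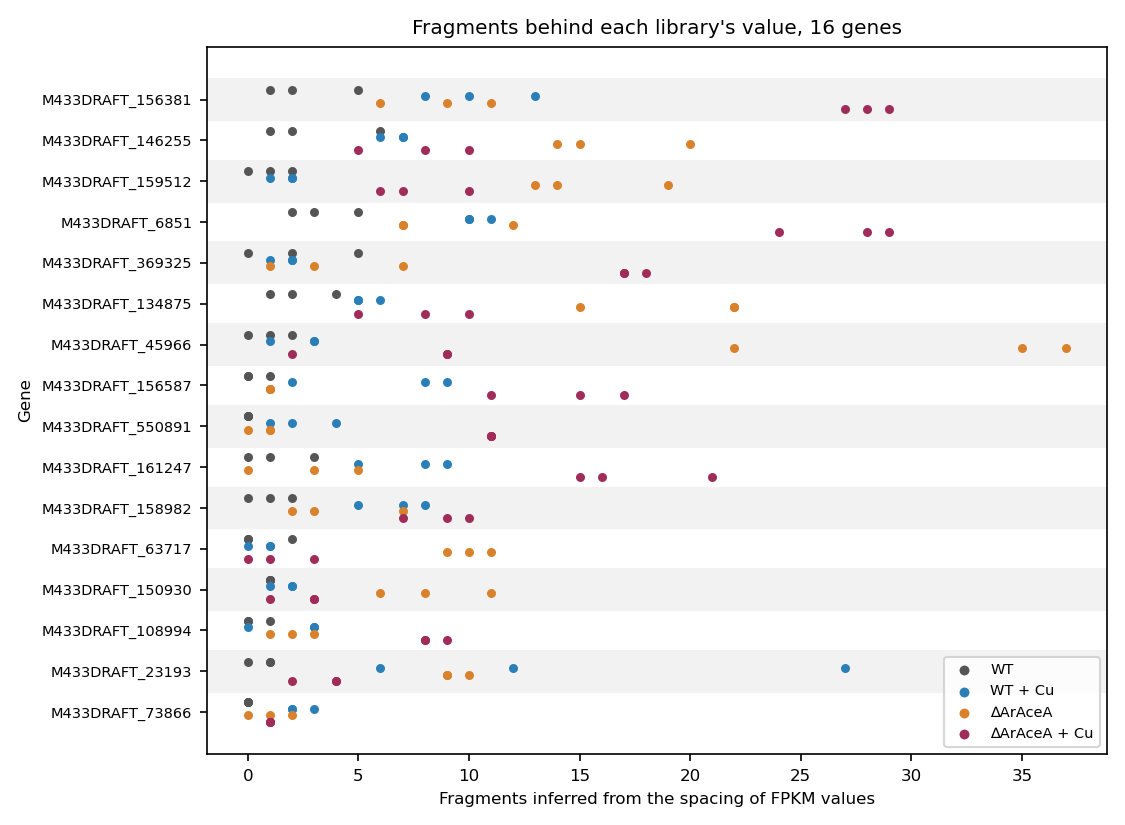
Fragments behind the value of each of the 12 libraries for the 16 genes in which the spacing of the FPKM values gave the worth of 1 fragment. Each point is a library, coloured by group, and genes are ordered by fragments per FPKM; WT libraries without copper lie at 6 fragments or fewer in every gene.

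M433DRAFT_10371 and M433DRAFT_9941 had equal values in all 12 libraries, 0.21, 0 and 0 FPKM in the WT libraries, 1.63, 1.63 and 0.72 in those of WT with copper, 0.20, 0.15 and 0.23 in those of ∆ArAceA and 1.96, 1.15 and 1.92 in those of ∆ArAceA with copper. Reads shared between near-identical genes could give such a pair, which was not tested, so they are uncertain as separate genes, and the 66 genes held 65 distinct profiles. The whole table held 25 such sets, with 50 genes in all, and only 5 of the sets had a value of at least 1 FPKM. The copper libraries of both strains lay above the copper-free ones in this profile, and 1 library of WT with copper, at 0.72 FPKM, kept it from reaching 1 FPKM in both.

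The limits cut through a continuous range. Just inside the WT limit were M433DRAFT_154487 and M433DRAFT_4372, with a highest WT value of 0.49 FPKM, and M433DRAFT_151688, with 0.48 FPKM, and just outside were M433DRAFT_105585, M433DRAFT_144510 and M433DRAFT_4743 at 0.5 FPKM. For the lowest library of the best other group, M433DRAFT_64029, M433DRAFT_204642 and M433DRAFT_150930 were inside at 1, 1.02 and 1.03 FPKM, and M433DRAFT_158760, M433DRAFT_450242 and M433DRAFT_157988 outside at 0.98, 0.95 and 0.93 FPKM. At the ceiling, M433DRAFT_456327, M433DRAFT_542149 and M433DRAFT_20741 had a highest group mean of 4.51, 4.38 and 4.35 FPKM, and M433DRAFT_156164, M433DRAFT_61298 and M433DRAFT_150203 lay outside at 5.59, 6.45 and 7.12 FPKM. The ceiling had the widest gap of the 3 limits.

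Choosing the genes without 1 library and then looking at that library shows how far a single library decides membership. With WT replicates 1, 2 and 3 left out in turn, 83, 93 and 84 genes were chosen, and 79.5%, 71.0% and 78.6% of them were below 0.5 FPKM in the library left out. Only 1, 5 and 2 of the genes reached 1 FPKM in it. For WT with copper 7, 10 and 10 genes were chosen, and 85.7%, 60% and 60% were at 1 FPKM or more in the library left out. The shares ran from 81.4% to 85.4% for ∆ArAceA and from 86.4% to 95% for ∆ArAceA with copper, so the genes let in by WT with copper were the least stable of the 3 lists in 2 of its 3 libraries.

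The spread among replicates in the group that let a gene in was widest in WT with copper. The median coefficient of variation was 25.2% over the 6 genes let in by WT with copper, 17.4% over the 35 let in by ∆ArAceA and 17.5% over the 38 let in by ∆ArAceA with copper. Its highest value in the last list was 31.2%. These spreads are a description, since each list was chosen by a minimum in the same libraries.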

How the data were processed

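Transcript levels came from 12 RNA-seq libraries of mycelium, grouped by the genotype and CuCl2 labels, with 3 cultures a group. The authors deposited FPKM per gene and library, and a series table that repeats them, equal in 12 of 12 libraries, with 0 columns of values unmapped. In the authors' deposited series table each log2 ratio between groups has a Q value (adjusted p-value) beside it. The tools listed per the submitters' processing notes are HISAT2 2.1.0, DESeq2 and RSEM 1.2.8, without their roles; genome build and strand are not given in the sources used here. Read counts were not used here, so the absolute depth is unknown.

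The members and lists were chosen with earlier results of these data known. The rule was applied to the FPKM as deposited. Tests used limma 3.58.1 in R 4.3.3, with trended and robust moderation, on log2(FPKM + 1), in 1 fit over the 4 groups, for the 8741 genes at 1 FPKM or more in at least 3 libraries. This left out 1302 genes and none of the 66, each of which passes by its rule. An adjusted p under 0.05 was called. The test planned for counts was replaced by the one planned for FPKM. Named genes were the 3 with the highest group mean of each block, the 3 highest among those at 0 in WT, the 3 nearest to each limit on either side and the 3 largest called rises and falls of the 2 tests. The worth of 1 fragment was sought as a step of at least 0.05 FPKM with at most 40 fragments a value and at least 8 values above 0, after library scales of 0.982 to 1.01 from 345 low genes. Alternatives were other limits, pseudocount 0.1, no filter, other scalings, a fit on the groups compared, a replicate block and each library left out. Scripts were checked on simulated data. Functional lists, sequences and neighbouring positions were not analysed here.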

Additional observations from a re-analysis of the deposited data

How the results depend on the processing

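The set depended on its limits and on the scaling of the libraries. With a WT limit of 0.25 FPKM 26 genes remained by the rule, 3 let in by WT with copper, 14 by ∆ArAceA and 15 by ∆ArAceA with copper. With 2 FPKM as the level to reach the counts were 18, 0, 10 and 9. After scaling by the median of ratios they were 55, 6, 26 and 35, against 66, 6, 35 and 38 as deposited. A ceiling of 10 FPKM gave 10 genes let in by WT with copper, and asking for a group mean of 1 FPKM gave 13 by WT with copper and 57 by ∆ArAceA. Leaving out 1 library in turn gave 66 to 93 genes, 6 to 11 by WT with copper (11 without WT replicate 2, 10 without replicate 2 or 3 of WT with copper), 35 to 56 by ∆ArAceA (56 without WT replicate 2) and 38 to 50 by ∆ArAceA with copper.

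For copper in ∆ArAceA, the 2 higher calls among 6 genes were made in each setting with the ceiling, and the lower calls were 0 to 1 without 1 library. Without the ceiling, an alternative chosen after seeing the data, 7 of 12 genes were higher and 2 lower. For the genotypes with copper, 14 to 18 of the 35 genes were called higher without 1 library and 1 to 2 lower, with 2 lower without replicate 2 of either copper group, and without the ceiling 23 of 42 were higher and 1 lower. Over all genes the 3092 higher and 994 lower calls became 1896 and 1877 after scaling by the median of ratios, and 1581 lower calls were made after upper-quartile scaling; the cause was not tested beyond the shift of the median. For single genes, 5 of 6 and 25 of 35 had the same call in every setting tried.

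Same-numbered cultures did not deviate together: over 18 pairs the correlation of their deviations from the group means ran from -0.175 to 0.066, and 0 were over 0.1. With the replicate number as a block, 16 of the 35 genes were called higher and 1 lower, and 2 of the 6 higher and 1 lower. Depth may limit these results too, since values near 1 FPKM can rest on a few fragments. Fragments were inferred for only 16 of the 66 genes, so this limit was not measured for the other 50.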

Other observations

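The same rule with another group as the nearly silent one gave fewer genes. Taking WT with copper as that group gave 35 of 935 genes below 0.5 FPKM in all 3 libraries (3.74%), of which 25 were among the 66. Taking ∆ArAceA gave 16 of 805 (1.99%), with 11 among the 66, and ∆ArAceA with copper gave 11 of 826 (1.33%), with 3 among the 66. With WT without copper the share was 6.34%. Genes listed at 0 in all 3 libraries of a group and at 1 FPKM or more in all 3 of another numbered 17 for WT, 15 for WT with copper, 7 for ∆ArAceA and 11 for ∆ArAceA with copper. Of these, 8, 5, 4 and 5 had a mean of 5 FPKM or more in another group. Why the counts differ between groups was not tested.

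The 1041 genes nearly silent in WT also held many that reached 1 FPKM in single libraries. Each library of WT with copper had 25 to 30 of them at 1 FPKM or more, each ∆ArAceA library 72 to 80 and each ∆ArAceA library with copper 68 to 87. The ranges of the 2 ∆ArAceA groups overlapped, and both lay above that of WT with copper.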
